A study of Mus musculus with 8 samples.

Results

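Regulators of G protein signalling (RGS proteins) switch off the signals of G protein-coupled receptors. When a receptor is activated, the alpha subunit of its G protein binds GTP, and the shared RGS domain speeds the hydrolysis of that GTP, so the alpha and the beta-gamma subunits rejoin and the signal ends. In fat, receptors that act through Gs raise cyclic AMP and drive lipolysis, receptors that act through Gi oppose it, and receptors that act through Gq release calcium. Immune cells of the tissue use the same machinery to limit their response to chemokines. Several RGS genes are themselves switched on by receptor or inflammatory signals and act as feedback brakes.

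The genes described here are Rgs1, Rgs2, Rgs3, Rgs4, Rgs5, Rgs10, Rgs14, Rgs16, Rgs18 and Rgs19, or 10 of the 22962 genes of the deposited table. The table holds 19 genes named Rgs with a number. The 10 were selected on the measured levels of these libraries and with the difference between the groups known, with no threshold. Their differences between groups are thus given as a description, with no p-value for any member, and the choice left out Rgs11 and Rgs12, whose levels lie above those of Rgs4 and Rgs5. A minimum mean of 0.5 FPKM (fragments per kilobase of gene, scaled to the reads assigned in the library) over the 8 libraries was passed by 9 of the 10, and Rgs5 fell below it.

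All libraries came from wild-type mouse cells of the stromal vascular fraction of gonadal fat, the progenitor, immune and vascular cells left once floating adipocytes are removed, and were taken through adipocyte differentiation in the dish. They received DMSO, the solvent, or DoxSa on day 6, with 4 libraries in each of the 2 groups. The labels do not spell out DoxSa, and the title of the series concerns 1-deoxysphingolipids, atypical sphingolipids made from alanine in place of serine. Neither dose nor length of exposure, nor whether replicates were separate cultures or animals, is given there, so p-values below measure only the spread between these samples, which may be technical.

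The totals of assigned reads, recovered from the FPKM, were even, at 39213008 to 41365861 per library. The cultures were mixed. The FPKM of 10 adipocyte markers summed to between 11389 and 11784 in the DMSO libraries and between 11348 and 11929 in the DoxSa libraries, and all 10 were tested. The 17 macrophage markers, also all tested, summed to between 7428 and 8502 in DMSO and between 8249 and 8793 in DoxSa. The 5 measured markers of T and NK cells, of 9 listed, summed to at most 0.298 FPKM in any library and the 4 measured ones of B cells, of 5, to at most 0.0967 FPKM. Of the measured markers of 12 cell types, 0 were at 0 in every library. In bulk RNA, fewer cells of a type and less RNA per cell cannot be told apart.

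Among the 9 tested members, 2 were called higher (Rgs1 and Rgs16) and 1 was called lower (Rgs4) in DoxSa at a Benjamini-Hochberg adjusted p under 0.05 of limma over all tested genes. Rgs4 passed the minimum mean only through the DMSO libraries, where it was higher, so its being tested depended on that group. Of the 12060 genes tested, 3.88% were called higher, 2.02% lower and 5.9% in either direction. These are 468 higher and 244 lower genes, or 384 and 316 with quantile normalization. The groups did not overlap for the same 3 members, and for 12.5% of all tested genes. The members were chosen with this contrast known, so nothing is read from their counts. Their median log2 fold change was -0.01, and that of all tested genes was 0.01.

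The promoters of Rgs16 and Rgs4 are shown because they belong to members whose groups were apart in opposite directions. The sequences are the 250 bases before the annotated start, 5′ to 3′ on the strand of the gene, from the RefSeq promoter table of build GRCm38.p6. Reads were mapped by the authors to another build, GRCm39, and no position was carried over. Rgs16 lies on the plus strand at chr1:153740103-153740352 and Rgs4 on the minus strand at chr1:169747643-169747892. Capitals mark core promoter elements, namely the CCAAT box (CCAAT), the GC box (GGGCGG) and the TATA box (TATAAA), searched on both strands, and this search was added after the sequences had been seen.
Rgs16: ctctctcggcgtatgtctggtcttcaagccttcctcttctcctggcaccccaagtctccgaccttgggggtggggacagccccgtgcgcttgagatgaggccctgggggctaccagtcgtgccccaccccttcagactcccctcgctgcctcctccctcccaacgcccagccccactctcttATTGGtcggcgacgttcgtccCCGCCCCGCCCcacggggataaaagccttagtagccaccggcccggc
Rgs4: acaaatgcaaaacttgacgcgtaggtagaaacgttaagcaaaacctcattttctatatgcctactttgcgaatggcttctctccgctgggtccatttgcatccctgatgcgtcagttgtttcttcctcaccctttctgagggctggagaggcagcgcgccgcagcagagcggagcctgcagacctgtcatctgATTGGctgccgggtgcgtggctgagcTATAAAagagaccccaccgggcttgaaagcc
Both windows hold a CCAAT box on the opposite strand, which 33.8% of the 32851 windows of the table hold. The Rgs16 window has 2 overlapping GC boxes on the opposite strand (32.7% of windows have at least 1) and a GC content of 66.4%. The Rgs4 window has a TATA box whose first base is 31 bases before the start (12.4% of windows) and a GC content of 53.6%. The Rgs16 window lacks the letters TATAAA but holds the similar gataaaa near the start, which the search did not mark.

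Motifs of signal-driven factors were searched in the full 300-base windows, 250 before and 50 after the start, on both strands. They were the cAMP response element TGACGTCA (1.79% of 32851 windows), the AP-1 site TGANTCA (7.81%), the kappaB site GGGNNTTCC (5.82%), the IRF site AAANNGAAA (10.6%) and the ATF4 site TGATGNAA (3.97%). Of the members, 7 matched the table, with 10 windows in all. Neither the Rgs16 nor the Rgs4 window held any of the 5, which says only that these letters are not in these windows. Matches were found in 3 windows, the IRF site in that of Rgs5 and the kappaB site in 2 overlapping windows of Rgs19.

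Of the 10 members, 6 lie on chromosome 1 in the RefSeq order of genes, in 3 neighbourhoods. Rgs2, Rgs1 and Rgs18 stand in a row with Rgs13 and Rgs21 as the only other protein coding genes between them. Rgs5 and Rgs4 are next to each other with no gene between. Rgs16 has Rgs8, which is not among the members, as its nearest protein coding neighbour on 1 side. As the values below show, Rgs1 was higher in DoxSa while the groups overlapped for Rgs2 and Rgs18. Rgs4 was lower in DoxSa, while the groups overlapped for Rgs5, which had 7 to 34 reads per library and was not tested. Whether neighbours differed from each other in their response was not tested.

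**Figure D1:**
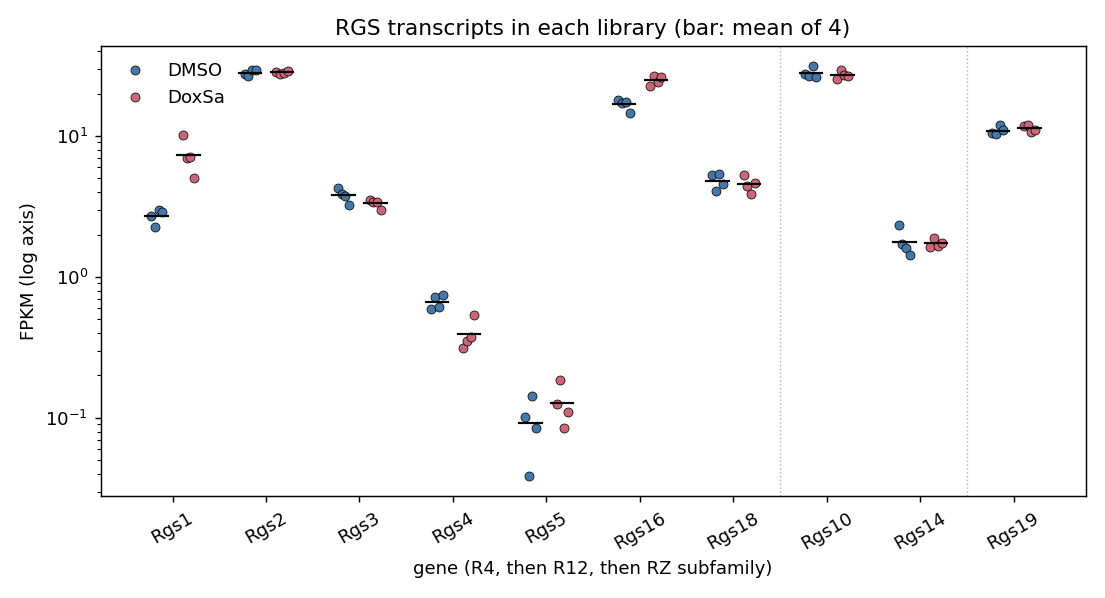
FPKM (log axis) of the 10 RGS genes in each library, DMSO in blue and DoxSa in red, with a bar at the mean of 4 libraries. Rgs1 and Rgs16 lie higher in all 4 DoxSa libraries than in any DMSO library, Rgs4 lies lower, and the groups overlap for the other 7 genes.

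The R4 subfamily holds small proteins that are little more than an RGS domain with a short N-terminal helix. Rgs1 (Entrez 50778) is its member known best from lymphocytes and macrophages, where it dampens chemokine receptor signals. Rgs1 measured 2.70, 2.25, 2.98 and 2.89 FPKM in DMSO 1 to 4 and 10.2, 6.94, 7.08 and 5.001 FPKM in DoxSa 1 to 4. Every DoxSa library was above every DMSO library, with DoxSa 1 the highest and DoxSa 4 the lowest of its group. The means were 2.71 ± 0.328 and 7.31 ± 2.15 FPKM (SD, n = 4), a ratio of 2.70. The log2 fold change was taken on log2(FPKM + 1), a scale that compresses changes of low genes, and was 1.13 ± 0.15 (SE, 95% interval 0.81 to 1.46). The spread between libraries was wider in DoxSa, with a coefficient of variation of 29.5%, than in DMSO, with 12.1%. These values rest on 119 to 164 recovered reads per DMSO library and 279 to 570 per DoxSa library. Without DoxSa 1 the log2 fold change was 0.98, and without DoxSa 4 it was 1.28.

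Rgs16 (Entrez 19734) encodes a regulator of Gi and Gq signals that many cells induce after receptor stimulation. Its transcript measured 17.9, 17.1, 17.5 and 14.5 FPKM in DMSO 1 to 4 and 22.7, 26.6, 24.2 and 26.0 FPKM in DoxSa 1 to 4. Again no library of one group reached the other, and DMSO 4 was the lowest of the 8. The means were 16.7 ± 1.53 FPKM and 24.9 ± 1.76 FPKM (SD, n = 4), a ratio of 1.49, and the log2 fold change was 0.55 ± 0.07 (SE, 95% interval 0.40 to 0.69). At 1385 to 2508 reads per library, Rgs16 was read more deeply than Rgs1, and its spread was narrower, with a coefficient of variation of 9.14% in DMSO and 7.08% in DoxSa. In FPKM the added amount was larger for Rgs16 than for Rgs1, while the ratio was larger for Rgs1.

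Rgs4 (Entrez 19736), which encodes a short-lived regulator of Gi and Gq best known from neurons and smooth muscle, was the lowest of the tested members. It measured 0.591, 0.720, 0.610 and 0.739 FPKM in DMSO 1 to 4 and 0.312, 0.351, 0.374 and 0.535 FPKM in DoxSa 1 to 4. The groups did not overlap, though DoxSa 4 came close to DMSO 1. The means were 0.665 ± 0.0752 and 0.393 ± 0.0979 FPKM (SD, n = 4), with the DoxSa mean at 0.591 of the DMSO mean. With 0.529 FPKM over the 8 libraries, Rgs4 passed the minimum of 0.5 FPKM only through the DMSO libraries. The log2 fold change was -0.26 ± 0.06 (SE, 95% interval -0.40 to -0.12). It was -0.65 with a pseudocount of 0.1 and -0.77 by voom, limma's method for counts, on whole reads recovered from the FPKM. Only 38 to 89 reads per library stand behind these values. The call was lost when DMSO 2, 3 or 4 or DoxSa 1, 2 or 3 was left out, with log2 fold changes between -0.31 and -0.23 over all left-out libraries. It was also lost with no filter on low values and with library quality weights, and Rgs4 was not tested at a minimum mean of 2 FPKM.

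Rgs2 (Entrez 19735), a regulator that prefers Gq and that cyclic AMP is known to induce in many cells, was the most abundant member in both groups. It measured 27.5, 26.6, 29.2 and 29.2 FPKM in DMSO 1 to 4 and 28.4, 27.6, 28.2 and 28.8 FPKM in DoxSa 1 to 4. The DoxSa libraries all lay within the range of the DMSO libraries. The log2 fold change was 0.01 ± 0.04 (SE), and its 95% interval of -0.08 to 0.09 was the narrowest among the tested members. Rgs2 was also the most even member, with a coefficient of variation of 4.53% in DMSO and 1.76% in DoxSa.

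The Rgs3 gene yields several proteins, of which the longer ones carry further domains. Rgs3 measured 4.29, 3.89, 3.74 and 3.26 FPKM in DMSO 1 to 4 and 3.53, 3.43, 3.39 and 3.001 FPKM in DoxSa 1 to 4. The 3 highest values were in DMSO, but DMSO 4 lay among the DoxSa libraries. The log2 fold change was -0.14 ± 0.07 (SE, 95% interval -0.29 to 0.01). A non-coding gene, Gm52741, overlaps Rgs3 in the RefSeq table, and the strand setting of the counting is not given in the sources used here, so reads of both cannot be told apart.

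Rgs18, a regulator of platelets and myeloid cells, measured 5.26, 4.06, 5.36 and 4.53 FPKM in DMSO 1 to 4 and 5.33, 4.39, 3.85 and 4.61 FPKM in DoxSa 1 to 4. The groups overlapped over nearly their whole range, and the log2 fold change was -0.07 ± 0.09 (SE, 95% interval -0.26 to 0.13). Rgs5, a marker of pericytes, measured 0.101, 0.0388, 0.144 and 0.0848 FPKM in DMSO 1 to 4 and 0.126, 0.186, 0.0849 and 0.110 FPKM in DoxSa 1 to 4. These values stand for 7 to 34 reads per library, the groups overlapped, and Rgs5 was not tested.

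For the members of the R12 and RZ subfamilies, Rgs10, Rgs14 and Rgs19, the groups overlapped. Rgs10, the R12 member of microglia and macrophages, measured 27.5, 26.6, 31.2 and 26.1 FPKM in DMSO 1 to 4 and 25.5, 29.5, 27.1 and 26.5 FPKM in DoxSa 1 to 4, with a log2 fold change of -0.03 ± 0.06 (SE, 95% interval -0.16 to 0.10). Rgs14, a larger R12 scaffold that also binds inactive Gi and Ras-like GTPases, had means of 1.77 ± 0.390 and 1.73 ± 0.110 FPKM (SD, n = 4). DMSO 1 was its highest library at 2.32 FPKM and DMSO 4 its lowest at 1.43 FPKM, so the DoxSa libraries, from 1.63 to 1.88 FPKM, lay inside the DMSO range. Its log2 fold change was -0.01 ± 0.09 (SE, 95% interval -0.20 to 0.18). Rgs19, the RZ member that acts on Gi and related subunits, had means of 10.9 ± 0.740 and 11.3 ± 0.623 FPKM, and its log2 fold change was 0.05 ± 0.05 (SE, 95% interval -0.07 to 0.17).

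**Figure D2:**
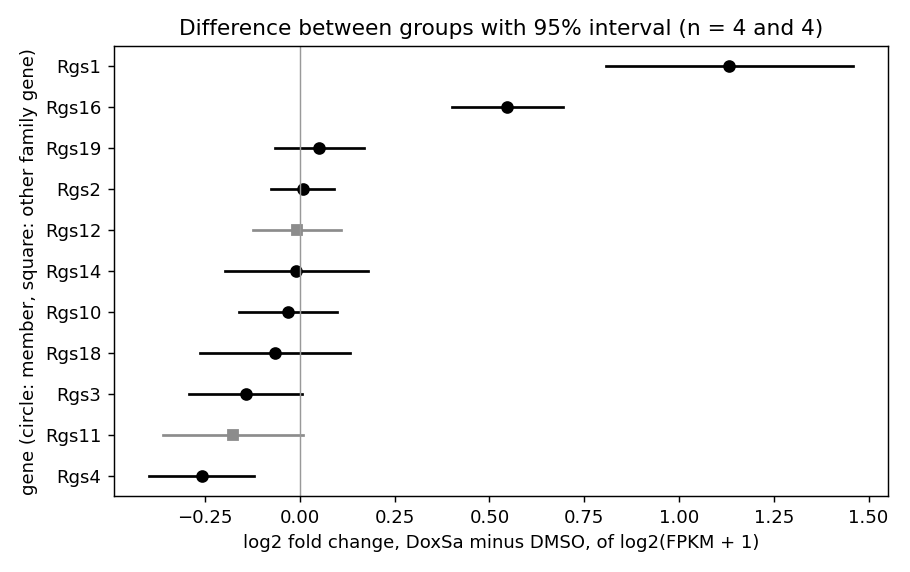
Log2 fold change (DoxSa minus DMSO, on log2(FPKM + 1)) of the 9 tested members (circles) and of 2 further family genes (squares), with 95% intervals of the limma fit (n = 4 per group). The intervals of Rgs1 and Rgs16 lie above 0, that of Rgs4 below 0, and the other 8 include 0.

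The order of the levels, which can be set side by side because FPKM is scaled to gene length, was Rgs2, Rgs10, Rgs16, Rgs19, Rgs18, Rgs3, Rgs1, Rgs14, Rgs4 and Rgs5 in DMSO. In that order the ranges of Rgs2 and Rgs10, of Rgs18 and Rgs3, and of Rgs1 and Rgs14 overlapped, and the other neighbours were apart. In DoxSa, Rgs1 stood above Rgs18 and Rgs3 in the order, and the range of Rgs16 overlapped that of Rgs10. Rgs1 overlapped Rgs18 there, but it lay above Rgs3 in every DoxSa library. The length recovered from the FPKM was 11820 bases for Rgs3 and 1350 bases for Rgs1. The order of these 2 therefore depends on the lengths used, and which Rgs3 transcripts were present was not tested. By mean level over the 8 libraries, Rgs2 was above 82.2% of all tested genes, Rgs10 above 81.9%, Rgs16 above 77.1% and Rgs1 above 40.8%.

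The FPKM of the 10 members summed to between 93.2 and 104 in DMSO and between 107 and 113 in DoxSa. Without Rgs1 and Rgs16 the sums were 73.9 to 83.8 and 75.3 to 79.2 FPKM, and overlapped. Rgs16 made up 15.5% to 18.3% of the sum in the DMSO libraries and 20.7% to 24.2% in the DoxSa libraries. Rgs1 made up 2.41% to 3.09% and 4.66% to 9.31%. These shares restate the differences of Rgs1 and Rgs16 given above. The members were chosen with those differences known, so nothing further is read from the shares.

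Some markers of cell types also differed between the groups. Of the 17 macrophage markers, 4 rose (Cd14, Fcgr1, Ptprc and Aif1) and 0 fell, with a median log2 fold change of 0.11, and the summed levels given above overlapped between groups. The count of risen markers was 0 with no filter on low values, 2 with quantile normalization and 1 without DoxSa 1, 2 or 3. The FPKM of Fcgr1 overlapped between groups, and the adjusted p of Cd14 reached 0.0933 over all alternatives. Csf1r, the receptor that macrophages need to survive, measured 101 FPKM in both groups, with a log2 difference of 0.00 ± 0.05 (SE, adjusted p = 0.998). Ptprc, the pan-leukocyte gene of CD45, rose from a mean of 15.4 FPKM (13.2 to 16.5) to 18.6 FPKM (17.8 to 19.2), a log2 difference of 0.26 ± 0.06 (SE, adjusted p = 0.0301). Ptprc lost its call when any 1 of the 4 DoxSa libraries was left out (adjusted p between 0.0554 and 0.0865), Aif1 without DMSO 2 or DoxSa 1, 2 or 3 (between 0.0515 and 0.0612), and Fcgr1 without any library but DMSO 1 or DoxSa 4 (between 0.0729 and 0.111). Rgs1 per Ptprc was 0.1697 to 0.184 in the DMSO libraries and 0.265 to 0.532 in the DoxSa libraries, and Rgs1 per Rgs18 was 0.513 to 0.638 and 1.08 to 1.92. These ratios were chosen after values were seen and were not tested. The part of leukocyte content in the Rgs1 difference was not tested either. The 3 measured megakaryocyte markers, of 5 listed, summed to 177 to 196 FPKM in DMSO and 209 to 221 in DoxSa, nearly all of it Pf4. Pf4 rose with a log2 difference of 0.21 ± 0.04 (SE, adjusted p = 0.00820). Of the 2 tested markers it was the only 1 called. The sums thus describe 1 gene, and the cells that carried it were not determined.

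Of the 8 tested markers of pericytes and smooth muscle, of 9 listed, 4 fell (Acta2, Tagln, Myh11 and Pdgfrb) and 0 rose, with a median log2 fold change of -0.18, while voom also called Abcc9, as higher. The summed level of the list was 626 to 692 FPKM in DMSO and 452 to 505 FPKM in DoxSa. Most of it came from Acta2 and Tagln, with means of 289 and 315 FPKM in DMSO and 184 and 248 FPKM in DoxSa. The sums thus describe mainly these genes, and Rgs4 was lower in the same group of libraries. Rgs4 per Pdgfrb, a receptor of mural and stromal cells, was 0.0194 to 0.0258 in the DMSO libraries and 0.0125 to 0.0205 in the DoxSa libraries, and DoxSa 4 lay above DMSO 1 and DMSO 3. The part of the pericyte and smooth muscle genes in the Rgs4 result was not tested. The 7 endothelial markers summed to at most 2.22 FPKM in any library, the 6 mast cell markers, of which 4 were measured, to at most 0.113, and the 5 neutrophil markers to at most 5.70. The 5 dendritic cell markers, of which 4 were measured, summed to at most 0.822 FPKM, and the 5 mesothelial markers to 16.8 to 17.3 FPKM in DMSO and 11.6 to 16.2 in DoxSa. Of 8 progenitor markers, whose sums overlapped (1709 to 2003.5 and 1772 to 1979 FPKM), 6 were tested, 1 rose (Cd55) and 0 fell. Of the 10 adipocyte markers, 1 fell (Retn) and 0 rose.

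**Figure D3:**
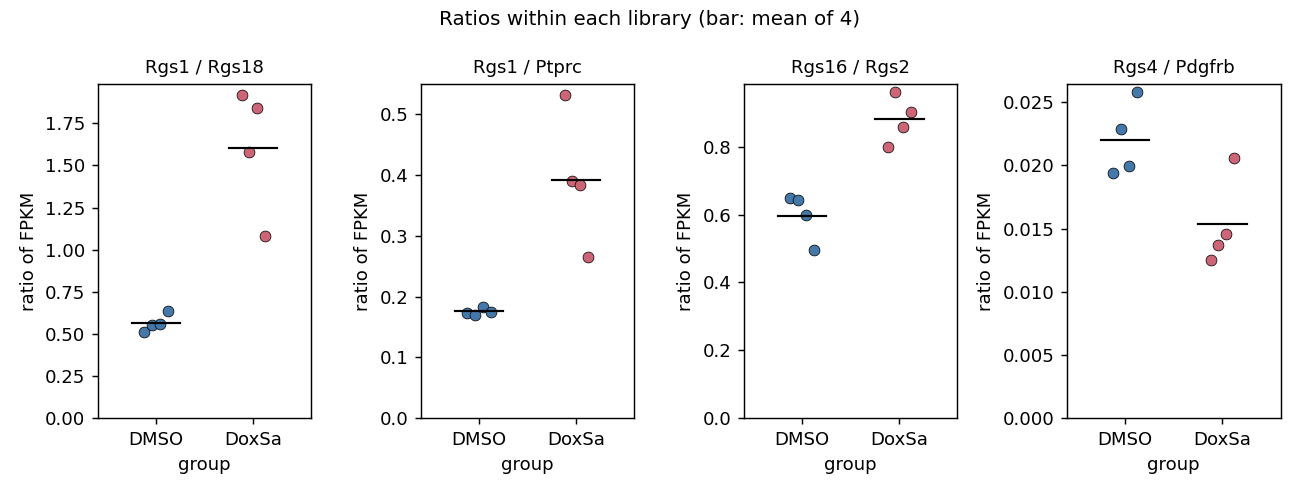
Ratio of 2 transcripts' FPKM within each library (vertical axes from 0), with a bar at the mean of 4 libraries. The ratios were chosen after values were seen, with the members' differences known, and were not tested. Rgs1 per Rgs18, Rgs1 per Ptprc and Rgs16 per Rgs2 do not overlap between groups, with Rgs16 per Rgs2 at 0.497 to 0.649 in DMSO and 0.7998 to 0.962 in DoxSa, and for Rgs4 per Pdgfrb DoxSa 4 lies above DMSO 1 and DMSO 3.

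The remaining RGS family was mostly silent. Besides Rgs11 and Rgs12, the other 7 Rgs genes of the table were below the minimum mean, with Rgs8 the highest of them at 0.152 to 0.243 FPKM and Rgs17 at 0.0297 to 0.102 FPKM. Rgs11, an R7 member that works in a pair with the beta subunit Gnb5, had a mean of 1.33 ± 0.246 FPKM with DMSO and 1.06 ± 0.176 with DoxSa (SD, n = 4), with a log2 difference of -0.18 ± 0.08 (SE, adjusted p = 0.273). Rgs12, the large R12 scaffold, differed by -0.01 ± 0.05 (adjusted p = 0.965) and Gnb5 by -0.06 ± 0.04 (adjusted p = 0.522). Of these 3, 0 passed the test of limma, 0 had an unadjusted p under 0.05 and 0 were called by voom. Of the 14 other proteins with an RGS homology domain, a list of axins, sorting nexins and receptor kinases among others, 12 were tested and 0 were called by limma (0 at an unadjusted p under 0.05, and 0 by voom), with a median log2 fold change of 0.01. The receptor kinase Grk2 differed by 0.03 ± 0.03 (adjusted p = 0.733) and the sorting nexin Snx14 by -0.06 ± 0.04 (adjusted p = 0.491).

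Around the RGS genes, 10 lists of G protein signalling genes (211 genes, 145 of them tested) held 10 genes that rose and 5 that fell, with a median log2 fold change of 0.01. Together these are 10.3% of the tested genes of the lists, beside 5.9% of all tested genes, and the difference between these shares was not tested. The lists were drawn up with earlier results of these data known. With no filter on low values, 9 of these 15 genes lost their call, namely Gnb4, Adora2b, Ptgir, Tbxa2r, S1pr1, Cxcr4, Plcb4, Rasgrp3 and Junb.

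Of the G protein subunits, RGS domains act on alpha subunits, chiefly those of the Gi and Gq classes. Gnai2, the main Gi alpha subunit here, had a mean of 279 ± 7.51 FPKM with DMSO and 287 ± 9.64 with DoxSa (SD, n = 4), with a log2 difference of 0.04 ± 0.04 (SE, adjusted p = 0.593). Gnas, the Gs alpha subunit, differed by -0.05 ± 0.03 (adjusted p = 0.430). Of 10 tested alpha subunits 1 rose, Gna13, from 15.7 ± 0.212 to 18.2 ± 0.443 FPKM (log2 fold change 0.20 ± 0.03, adjusted p = 0.00707), and 0 fell. Of 11 tested beta and gamma subunits 1 rose, Gnb4, from 1.78 ± 0.0907 to 2.41 ± 0.206 FPKM (0.29 ± 0.06, adjusted p = 0.0121), and 0 fell, while Gng5 and Gnb1, the most abundant, differed by 0.06 ± 0.03 (adjusted p = 0.333) and 0.02 ± 0.03 (adjusted p = 0.714). Of 9 tested arrestins and other G protein modulators 0 were called by limma, 3 had an unadjusted p under 0.05, and voom called 1, Ccdc88a, with Arrb2 at 0.11 ± 0.04 (adjusted p = 0.162) and Gpsm3 at 0.14 ± 0.07 (adjusted p = 0.262).

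Receptors changed in both directions. Among 24 tested receptors for catecholamines, adenosine, prostanoids and metabolites, 3 rose and 2 fell, with a median log2 fold change of -0.08. An unadjusted p under 0.05 was found for 12 of them, and voom also called Adra2a, as higher (log2 fold change 0.784, adjusted p = 0.024). Gpr84, a Gi-coupled receptor of medium-chain fatty acids found on myeloid cells, rose from 1.83 ± 0.126 to 3.12 ± 0.335 FPKM (SD, n = 4), a log2 difference of 0.54 ± 0.06 (SE, adjusted p = 7.59e-04). Adora2b, a Gs-coupled adenosine receptor, rose with 0.31 ± 0.06 (adjusted p = 0.0136) and Ptgir, the Gs-coupled prostacyclin receptor, with 0.28 ± 0.07 (adjusted p = 0.0332). Adra1d, a Gq-coupled adrenergic receptor, fell from 3.29 ± 0.371 to 2.03 ± 0.183 FPKM (-0.50 ± 0.07, adjusted p = 0.00199), and Tbxa2r, the thromboxane receptor, fell with -0.28 ± 0.07 (adjusted p = 0.0433). The most abundant receptors of this list, Adrb3, the beta adrenergic receptor that drives lipolysis in mouse fat, and Ffar4, a receptor of long-chain fatty acids, missed the threshold, at -0.15 ± 0.05 (adjusted p = 0.117) and -0.21 ± 0.07 (adjusted p = 0.0911). Ptgir lost its call when DMSO 3 or 4 or DoxSa 1, 2 or 4 was left out (adjusted p between 0.0525 and 0.0973), and Tbxa2r when DMSO 1, 2 or 3 or DoxSa 1, 2 or 4 was (between 0.0639 and 0.124). Tbxa2r also lost it with library quality weights (adjusted p = 0.0537), with the replicate number as a block (adjusted p = 0.0672) and by voom (adjusted p = 0.0531). Its adjusted p ranged from 0.0234 to 0.16 over all alternatives. Ffar4 passed the test without DMSO 2 or without DoxSa 4 (adjusted p between 0.0325 and 0.0441, and between 0.0325 and 0.239 over all alternatives).

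Among 28 tested receptors for lysophospholipids, proteases, nucleotides, chemokines and complement, 2 rose and 1 fell, with a median log2 fold change of 0.07. An unadjusted p under 0.05 was found for 8 of them, and voom also called S1pr3, Ccr1 and C5ar1, all as higher. S1pr1, a Gi-coupled receptor of sphingosine 1-phosphate, rose from 13.1 ± 1.13 to 15.9 ± 0.428 FPKM (SD, n = 4), a log2 difference of 0.26 ± 0.05 (SE, adjusted p = 0.0173). Cxcr4, a Gi-coupled chemokine receptor, rose with 0.26 ± 0.06 (adjusted p = 0.0356). F2r, the thrombin receptor PAR1, fell from 36.3 ± 1.89 to 28.9 ± 1.55 FPKM (-0.32 ± 0.05, adjusted p = 0.00342). The complement receptors C3ar1 and C5ar1 were the most abundant of the list and missed the threshold, at 0.09 ± 0.04 (adjusted p = 0.277) and 0.17 ± 0.05 (adjusted p = 0.0859), though C5ar1 passed it without DMSO 3 (adjusted p = 0.0455, and between 0.042 and 0.222 over all alternatives). S1pr1 lost its call without DoxSa 2 (adjusted p = 0.0568, and between 0.00561 and 0.078 over all alternatives), and Cxcr4 lost it when DMSO 1, 2 or 4 or DoxSa 1, 3 or 4 was left out (between 0.0639 and 0.0985).

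Downstream, 0 of 21 tested adenylyl cyclases, phosphodiesterases and protein kinase A genes were called by limma, 3 had an unadjusted p under 0.05, and voom called 1, Pde4b, with Prkar1a at 0.01 ± 0.03 (SE, adjusted p = 0.937) and Prkaca at -0.09 ± 0.03 (adjusted p = 0.141). Of 16 tested genes of the Gq branch 0 rose and 2 fell, namely Plcb4, a phospholipase C beta (-0.23 ± 0.06, adjusted p = 0.0339), and Rasgrp3, an exchange factor driven by diacylglycerol (-0.35 ± 0.09, adjusted p = 0.0491). Plcb3 and Prkcd, the most abundant of that branch, differed by -0.01 ± 0.03 (adjusted p = 0.868) and 0.08 ± 0.04 (adjusted p = 0.348). With libraries left out in turn, Plcb4 kept its call only without DMSO 1 (adjusted p otherwise between 0.0544 and 0.0944), and Rasgrp3 only without DoxSa 4 (otherwise between 0.0523 and 0.106). Plcb4 also lost its call with the replicate number as a block (adjusted p = 0.0641). Rasgrp3 also lost it with a pseudocount of 0.1, quantile normalization, no intensity trend and library quality weights (adjusted p between 0.0558 and 0.0854), with a range of 0.0124 to 0.19 over all alternatives. Of 11 tested early targets of CREB, the transcription factor that protein kinase A activates, 3 rose and 0 fell, with a median of 0.19. They were Atf3 (0.68 ± 0.09, adjusted p = 0.00135), Junb (0.31 ± 0.06, adjusted p = 0.0156) and Nr4a2 (0.25 ± 0.05, adjusted p = 0.0175), while Nfil3 differed by -0.04 ± 0.04 (adjusted p = 0.717). Nr4a2 passed the minimum mean only through DoxSa, with means of 0.468 FPKM in DMSO and 0.743 FPKM in DoxSa. Other signals, such as inflammatory and stress signals, are known to induce Atf3 and Junb as well. Junb lost its call without DoxSa 2 (adjusted p = 0.0527, and between 0.00347 and 0.0877 over all alternatives).

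**Figure D4:**
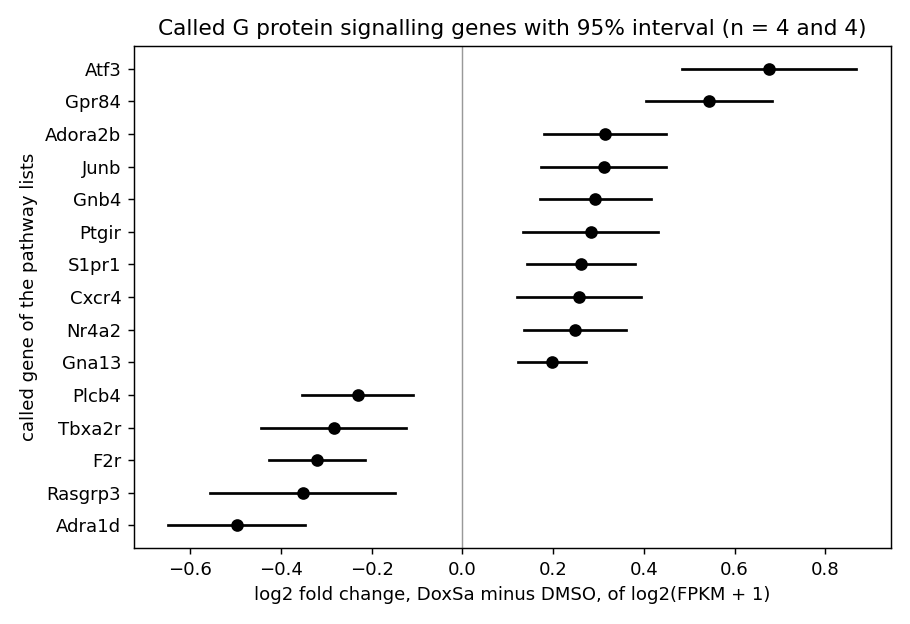
Log2 fold change (DoxSa minus DMSO, on log2(FPKM + 1)) of the 15 called genes of the 10 G protein signalling lists, with 95% intervals of the limma fit (n = 4 per group). Atf3 and Gpr84 have the largest rises among them and Adra1d the largest fall.

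The members' values were also set out under each of the 17 alternatives. The alternatives reuse the same libraries, and the members were chosen with the contrast between groups known, so nothing is read from their calls. Rgs1 kept a log2 fold change between 0.98 and 1.39 and Rgs16 between 0.48 and 0.59, and both were called in 17 of 17. Rgs4 stayed below 0 in the 16 alternatives that tested it and was called in 8 of them. Rgs3 lay between -0.20 and -0.09 and Rgs19 between 0.02 and 0.09, and neither was called in any. Rgs2, Rgs10 and Rgs14, the last tested in 16, took both signs and were called in none, and Rgs18 lay between -0.13 and -0.00 with no call.

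**Figure D5:**
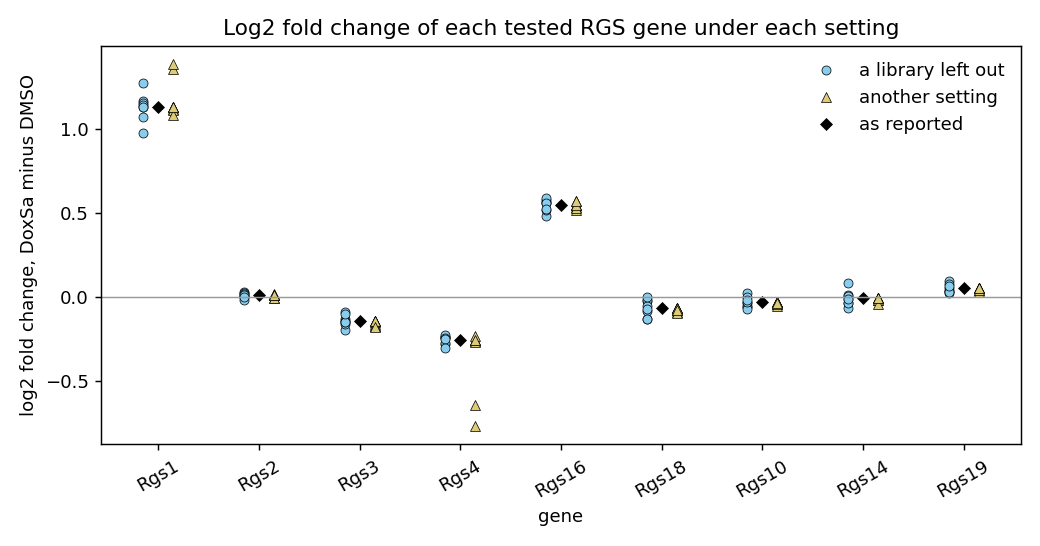
Log2 fold change (DoxSa minus DMSO) of the 9 tested members as reported (diamonds), with each of the 8 libraries left out (circles) and under the other settings (triangles). Rgs1 and Rgs16 stay above 0 and Rgs4 below 0 throughout, and the 2 lowest triangles of Rgs4 are the smaller pseudocount (-0.65) and voom (-0.77).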

How the data were processed

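HISAT2, HTSeq and build GRCm39 are named in the submitters' processing notes. Software versions, annotation and strandedness were not given in the sources used here. RNA came from TRIzol lysates and a VAHTS Universal V6 kit was used for the libraries, per the labels' protocols. The authors deposited 1 table of FPKM for 22962 genes in 8 libraries, each column assigned to its sample by the labels. Whole reads were recovered from the FPKM steps for 12060 of 12060 tested genes (within 0.001 of a whole number). Replicates did not agree within sampling noise (the smallest chi-square per degree of freedom of a pair was 5.67). The test was limma 3.58.1 in R 4.3.3 on log2(FPKM + 1) of genes averaging 0.5 FPKM or more, with an intensity trend and Benjamini-Hochberg adjustment over all tested genes. It was checked on simulated data. SE and 95% intervals are those of the moderated fit. Tables and figures used Python 3.11.15, numpy 2.4.6, pandas 2.3.3 and matplotlib 3.10.9.

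Genes named were all 10 members, family genes above the minimum mean, and from each of 10 pathway lists the 2 most abundant genes and up to 4 called genes in each direction. Markers of 12 cell types were given as sums, with the called ones named. Csf1r, Ccdc88a, Pde4b, Abcc9, Adra2a, S1pr3 and Ccr1, and the ratios within libraries, were chosen after values were seen. Members and lists were chosen with earlier results of these data known. All 10 members matched the RefSeq gene table by Entrez identifier.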

Additional observations from a re-analysis of the deposited data

Results flagged for a closer look

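In 114 groups of 4 libraries (57 genes named or counted among the members, in each of 2 treatments), 2 held a library far from the other 3, where chance gives about 1 in 20. Gnb4, a G protein beta subunit, measured 1.65 FPKM in DMSO 3 and 1.81 to 1.84 FPKM in the other DMSO libraries. Retn, the adipokine gene resistin, measured 343 FPKM in DoxSa 3 and 334 to 335 FPKM in the other DoxSa libraries. No RGS member had such a library in either group. Genes named only for a call by voom are not among the 57.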

How the results depend on the processing

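The 2 members called higher were counted in all 17 alternatives, which reuse the same libraries. Since the members were chosen with the contrast known, nothing is read from this. The count of 1 member called lower was 0 with no filter on low values, 0 at a minimum mean of 2 FPKM, 0 with library quality weights and 0 to 1 over left-out libraries. Genes called higher and lower in all were 158 and 108 with no filter (22962 genes tested), and 234 to 486 and 152 to 234 over left-out libraries, with counts moved by over 1.5 times without DoxSa 1 (250 and 154), without DoxSa 2 (234 and 152) and, for lower genes, without DMSO 2 (158). In the pathway lists 10 genes were called higher, and the total was 4 with no filter, 16 by voom and 7 to 11 over left-out libraries. The total called lower was 5, and 2 with no filter, 3 at a minimum mean of 2 FPKM, 3 with library quality weights, 3 with the replicate block and 2 to 4 over left-out libraries. Among 793 alternative values of the 47 other named genes and markers, 716 stayed on their side of the threshold, 73 lost and 4 gained a call, and 0 reversed. Genes named only for a call by voom are not among the 47. Beyond the fewer or more genes tested and fewer libraries, the cause was not tested. The median log2 fold change of all genes was 0.01, and over all alternatives, scalings included, it lay between -0.01 and 0.02.

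Same-numbered libraries of the 2 groups showed correlations of -0.0581, 0.0519, -0.0989 and 0.0654 across genes. Those of libraries with unlike numbers ran from -0.205 to 0.154. Pairing by the labels' numbers was thus not seen, though this check cannot tell a weak pairing from none. With the replicate block 415 genes were called higher and 209 lower, and 2 members higher and 1 lower, while Tbxa2r (adjusted p = 0.0672) and Plcb4 (adjusted p = 0.0641) were not called. The planned edgeR and DESeq2 tests were not run, because the deposited values are FPKM, and voom on recovered reads was added after seeing the data. Depth limits Rgs4 and Rgs5 most, with at most 89 and 34 reads per library.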
